A study of Mus musculus with 18 samples.

Results

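The genes described here are 10 markers by which fibroblasts and their subsets are recognised, Pdgfra, Thy1, Cd248, Dpp4, Pi16, Ly6a, Ly6c1, Dpt, Smoc2 and Gsn. They were taken by symbol as 10 of the 55453 gene symbols in a table of bulk RNA sequencing counts, and all 10 were among the 16170 symbols that passed a low-count filter and were tested. The cells were GFP+ cells of the Tcf21 lineage, sorted from the apical part of the mouse ventricles after the atria and valves were removed. Every pup was on the C57BL/6J background, carried 1 copy each of Tcf21-MerCreMer and Rosa-mTmG, and received 4-hydroxytamoxifen at P1, so that cells with Tcf21 promoter activity at that time and their descendants changed from tdTomato to GFP. The 18 libraries form 6 groups of 3. Un-manipulated pups gave P2 baseline and P10 baseline. Pups operated on at P2 and collected 3 days later gave P2 resected +3 days, where the apex was cut away, and P2 sham +3 days, where the chest was opened and the heart left whole. Surgery at P10 gave P10 resected +3 days and P10 sham +3 days in the same way. The 3 groups of each age of surgery or collection are called the P2 window and the P10 window, which the study set against each other as regenerative and non-regenerative.

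Several features limit these groups as a model. The lineage label follows Tcf21 at P1, so a cell that switched it on later may carry no GFP. Operated pups, unlike those at baseline, had also been cooled for anaesthesia and given buprenorphine, and by the study's methods fewer pups survived surgery at P10 than at P2. The number and the sex of the pups behind a library are not given in the sources used here, so p-values measure the spread between these libraries, which may be technical. An antibody to CD140a, the protein that Pdgfra encodes, was applied to the cells, whereas the sort itself is described by GFP and tdTomato alone. Collagenase and dispase digestion ran longer for the older hearts, so age and digestion time cannot be told apart. In bulk RNA, a smaller share of cells of one kind and less RNA per cell cannot be told apart either. Libraries held 10462737 to 22980554 counts on genes.

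Fibroblasts make and remodel collagenous matrix, and in the heart most of them descend from the epicardium and carry the PDGF receptor PDGFRA and the transcription factor TCF21. Surveys of fibroblasts over many tissues describe shared states, among them an adventitial state marked by Pi16 together with Dpp4, Ly6c1, Ly6a, Cd248 and Dpt, and a state marked by Col15a1 with basement membrane genes. The Pi16+ state is often spoken of as a universal or reservoir state, and Ly6a encodes the surface protein known as Sca-1. Dpt, Smoc2 and Gsn, whose products act in the matrix or on actin, are abundant in cardiac fibroblasts and are used as markers there. Tcf21 itself stood at 292 ± 74.0 CPM (counts scaled to a common TMM-adjusted library size, SD, n = 9) in the P2 window and 288 ± 52.8 CPM (SD, n = 9) in the P10 window. No library of GFP-negative cells was among the 18, so this level cannot check the label or the purity of the sort. Pdgfra, Dpt, Gsn and Smoc2 were above 250 CPM in every one of the 18 libraries.

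Upstream sequence from RefSeq (GRCm38.p6) was at hand for 6 of the 10 genes. That of Ly6c1 and Dpp4 is shown because both encode surface proteins of the Pi16+ state, and Ly6c1 was among the members that differed most between the ages whereas Dpp4 differed least among those called. Each line holds the 250 bases before the start site (for Ly6c1, the first of 2), read 5′ to 3′ on the strand of the gene, with matches to the motifs searched in capitals. The Ly6c1 window is chr15:75048838-75049087 and the Dpp4 window chr2:62412232-62412481, both on the minus strand. The window of the other Ly6c1 start site, chr15:75048664-75048913, is not shown and held none of the motifs searched.
Ly6c1: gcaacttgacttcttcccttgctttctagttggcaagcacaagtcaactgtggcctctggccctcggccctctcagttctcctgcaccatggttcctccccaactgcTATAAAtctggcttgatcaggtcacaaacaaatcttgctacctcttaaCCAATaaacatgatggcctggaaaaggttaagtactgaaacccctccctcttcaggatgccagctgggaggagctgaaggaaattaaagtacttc
Dpp4: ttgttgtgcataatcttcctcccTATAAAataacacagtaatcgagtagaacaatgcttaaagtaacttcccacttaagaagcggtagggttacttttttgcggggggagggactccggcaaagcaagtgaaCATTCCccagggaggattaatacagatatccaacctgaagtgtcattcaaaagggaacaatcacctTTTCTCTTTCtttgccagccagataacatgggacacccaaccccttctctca
In the Ly6c1 window the capitals mark a TATA box (TATAAA) that began 143 bases before the start and a CCAAT box (CCAAT) at 95 bases. In the Dpp4 window they mark a TATA box at 227 bases, a TEAD site (GGAATG, here on the other strand) at 118 bases and an interferon-stimulated response element (GAAA, any 2 bases, then GAAA, again on the other strand) at 52 bases. Of 32851 upstream windows of this length, 12.4% held TATAAA on either strand, 33.8% CCAAT, 12.6% GGAATG and 2.98% the response element. The interferon-gamma activated site (TTCNNNGAA) and the AP-1 site (TGACTCA) were also searched, and these letters were in neither window. The matches describe letters and not bound sites.

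The 10 genes are spread over 7 chromosomes. Ly6a (chr15:74994877-74998031) and Ly6c1 (chr15:75044018-75048830) lie close together on the minus strand within the Ly6 cluster, and Pi16 (chr17:29317680-29330593) and Smoc2 (chr17:14279506-14404790) share a chromosome, as do Dpp4 (chr2:62330073-62412231) and Gsn (chr2:35256380-35307892). The others are Pdgfra (chr5:75152292-75198215), Thy1 (chr9:44043384-44048579), Cd248 (chr19:5068078-5070682) and Dpt (chr1:164796644-164824266), all in GRCm38. Counting ignored strand and used exons, which bears on some of these genes. Of the 75-base words in Ly6c1 transcripts, 19% also occur in another gene (Ly6c2 or Ly6a), and for Ly6a the share was 6.33% (Ly6c1 or Ly6i). The genes that share words with Pdgfra (4.05%) and Dpp4 (2.52%) overlap them on the other strand, and reads there cannot be assigned to one strand. Pi16 shared 2.38% of its words with AC162182.1, which overlaps it on the other strand, and with E030032P16Rik and Dnajc11, which do not overlap it. Thy1, Cd248, Dpt, Gsn and Smoc2 shared none.

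Per kilobase of exon, Gsn was the most abundant of the 10 genes in both windows, at 934 ± 187 CPM per kilobase (SD, n = 9) in the P2 window and 3656 ± 1187 in the P10 window, followed by Dpt at 632 ± 144 and 807 ± 139. The lowest in the P2 window were Dpp4 at 6.15 ± 1.76, Ly6c1 at 6.23 ± 4.77 and Thy1 at 7.90 ± 3.13 CPM per kilobase, whose spreads overlapped. Pi16 stood at 9.14 ± 6.76 CPM per kilobase in the P2 window and at 184 ± 56.7 in the P10 window, and Ly6a at 15.5 ± 9.34 and 456 ± 591. Without replicate 3 of P10 resected +3 days, the Ly6a value in the P10 window was 273 ± 229 CPM per kilobase (SD, n = 8).

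The first question was whether the markers differ between the regenerative and non-regenerative windows. Of the 10 genes, 7 rose from the P2 to the P10 window (edgeR's quasi-likelihood test, Benjamini-Hochberg adjusted p under 0.05), where 7.11% of all genes tested rose and 13.5% changed in either direction. The other 3 also had a positive log2 fold change, and the median over the 10 was 1.56, against -0.06 over all genes tested. The 7 were Pi16, Ly6a, Ly6c1, Gsn, Smoc2, Cd248 and Dpp4. Every P10 library lay above every P2 library for 5 of them, Pi16, Gsn, Smoc2, Cd248 and Dpp4, where 1.15% of all genes did so.

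**Figure D1:**
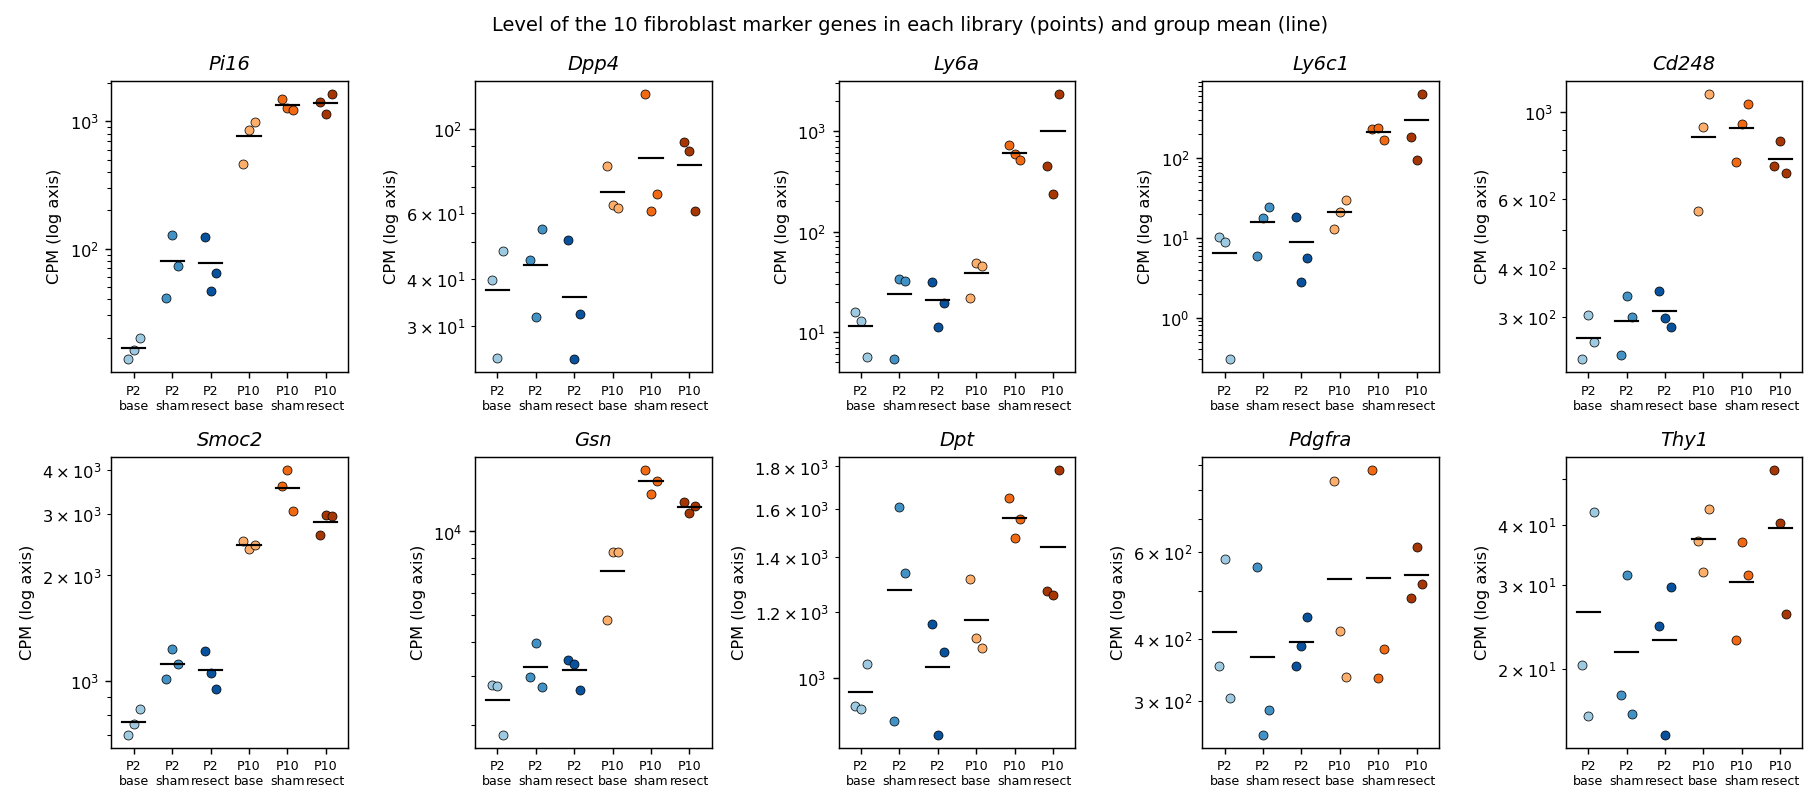
Level of each of the 10 marker genes in every library, in CPM on a log axis, with 3 points per group (blue, P2 groups; orange, P10 groups) and a line at the group mean. Pi16 runs from 13.6 CPM to 1635 CPM, Ly6a and Ly6c1 are highest in the P10 sham and P10 resected libraries, and the 2 ages overlap for Pdgfra, Thy1 and Dpt.

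Pi16, which encodes a secreted or membrane-anchored protein of the CAP family, showed the largest difference of the 10 between the windows. In the P2 window it stood at 13.6, 15.9 and 20.0 CPM at baseline, 40.8, 127 and 72.6 CPM after sham surgery, and 123, 46.9 and 63.9 CPM after resection. In the P10 window it stood at 463, 863 and 984 CPM at baseline, 1504, 1279 and 1233 CPM after sham surgery, and 1429, 1154 and 1635 CPM after resection. The lowest P10 library was above the highest P2 library, and the P2 baseline group lay below all other groups without overlap. Between the windows the log2 fold change was 4.59 (SE 0.26, adjusted p = 5.32e-09). It was 5.54 between the baselines (SE 0.47, adjusted p = 3.71e-06), 4.06 between the sham groups (SE 0.43, adjusted p = 9.56e-05) and 4.18 between the resected groups (SE 0.43, adjusted p = 0.000106).

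Ly6a, which encodes the GPI-anchored surface protein Sca-1, was low at P2 and at P10 baseline. Its level was 15.7, 12.8 and 5.67 CPM at P2 baseline, 5.43, 33.6 and 32.2 CPM after P2 sham surgery, and 31.5, 11.2 and 19.5 CPM after P2 resection. At P10 it was 22.1, 48.6 and 45.6 CPM at baseline, 725, 587 and 514 CPM after sham surgery, and 450, 238 and 2320 CPM after resection. The 6 operated P10 libraries lay above all 12 others, while P10 baseline overlapped with the P2 groups that had surgery. Replicate 3 of P10 resected +3 days, at 2320 CPM, stood far above the other 2 of its group. The log2 fold change between the windows was 4.01 (SE 0.46, adjusted p = 1.36e-05), and 3.51 without that library (adjusted p = 6.79e-06). It was 1.76 between the baselines (SE 0.73, adjusted p = 0.197), 4.68 between the sham groups (SE 0.81, adjusted p = 0.00315) and 5.59 between the resected groups (SE 0.85, adjusted p = 0.00355), the last falling to 4.07 (adjusted p = 0.00768) without the high library.

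Ly6c1, a GPI-anchored relative of Ly6a, followed the same order at lower levels. It was at 10.2, 8.88 and 0.305 CPM at P2 baseline, the last from 5 counts, at 5.94, 17.8 and 24.2 CPM after P2 sham surgery, and at 18.2, 2.82 and 5.62 CPM after P2 resection. At P10 it was at 12.98, 21.2 and 29.7 CPM at baseline, 231, 235 and 171 CPM after sham surgery, and 184, 95.5 and 632 CPM after resection. Again the 6 operated P10 libraries were above all others, and the same replicate 3 of P10 resected +3 days was the highest. The log2 fold change was 3.51 between the windows (SE 0.53, adjusted p = 0.000221), 1.70 between the baselines (SE 0.87, adjusted p = 0.307), 3.73 between the sham groups (SE 0.92, adjusted p = 0.0342) and 5.10 between the resected groups (SE 0.99, adjusted p = 0.0165). The call between the sham groups was lost when any 1 of the 6 libraries was left out (adjusted p up to 0.102), and that between the resected groups without replicate 2 or 3 of P2 resected +3 days or replicate 3 of P10 resected +3 days (adjusted p up to 0.130). The log2 fold change between the resected groups was 4.0 without that last library and 6.17 without replicate 1 of P2 resected +3 days.

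Because Ly6a and Ly6c1 transcripts share words, their counts were also set side by side. The 6 operated P10 libraries held 3747 to 29862 counts of Ly6a and 1502 to 8130 of Ly6c1, and the ratio of Ly6a to Ly6c1 counts lay between 2.45 and 3.67 in them. It lay between 1.53 and 2.30 in the P10 baseline libraries and between 0.914 and 18.6 in the P2 libraries, the highest of which rests on the 5 Ly6c1 counts. Ly6c2, the closest relative of Ly6c1 in sequence, held at most 29 counts in any library, in replicate 3 of P10 resected +3 days, and none in 11 of the 18. Ly6e, another gene of the cluster that shared no words with other genes, was at 391, 247 and 1829 CPM in P10 resected +3 days, so the same replicate 3 was its highest. Its log2 fold change between the windows was 1.10 (SE 0.28, adjusted p = 0.0144), and 0.66 without that library (adjusted p = 0.0104). Group by group it was -0.21 between the baselines (SE 0.49, adjusted p = 0.876), 1.15 between the sham groups (SE 0.49, adjusted p = 0.256) and 2.37 between the resected groups (SE 0.51, adjusted p = 0.0327), the last at 1.02 (adjusted p = 0.269) without that library.

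**Figure D2:**
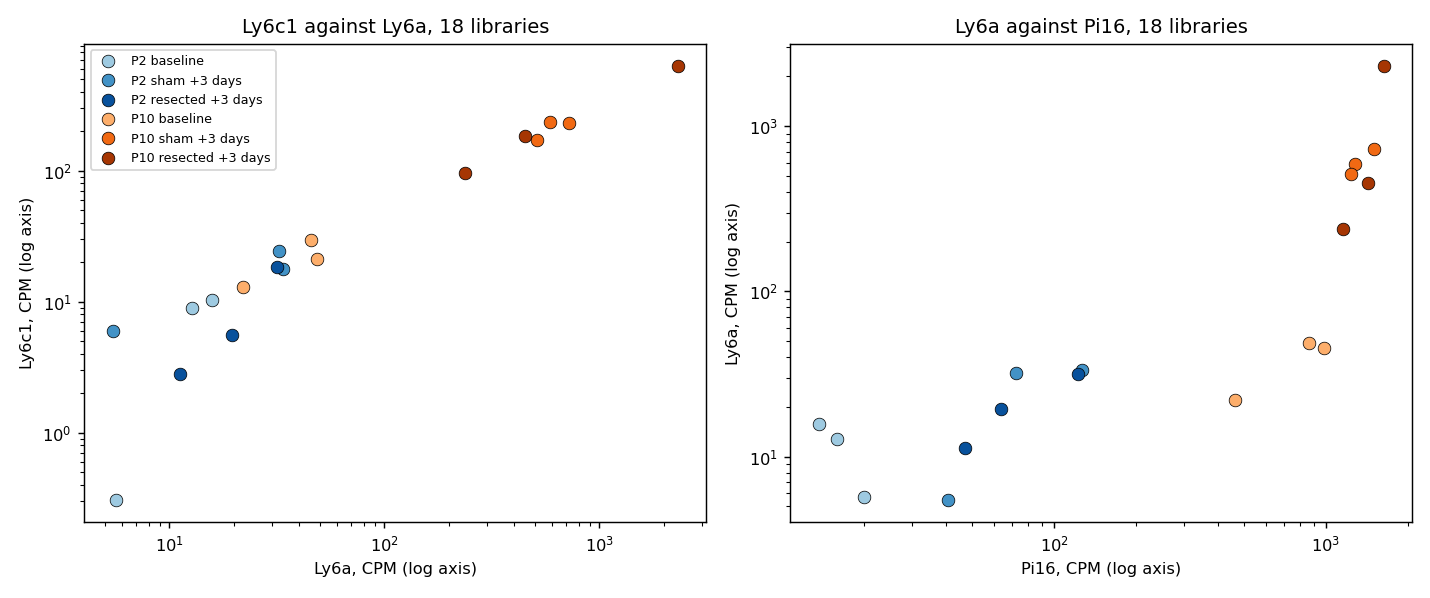
Ly6c1 against Ly6a (left) and Ly6a against Pi16 (right) in the 18 libraries, CPM on log axes, coloured by group. The 6 operated P10 libraries lie apart at 238 CPM of Ly6a or more, and the P10 baseline libraries pair Pi16 at 463 to 984 CPM with Ly6a at 22.1 to 48.6 CPM.

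Dpp4, a surface serine protease, was the least changed of the 7. It stood at 39.7, 24.7 and 47.5 CPM at P2 baseline, 44.9, 31.6 and 54.2 CPM after P2 sham surgery, and 50.7, 24.5 and 32.2 CPM after P2 resection. At P10 it stood at 79.7, 62.8 and 61.9 CPM at baseline, 124, 60.7 and 67.4 CPM after sham surgery, and 92.2, 87.6 and 60.4 CPM after resection. Every P10 library exceeded every P2 library, with the closest pair at 60.4 and 54.2 CPM. The windows differed by 0.99 on the log2 scale (SE 0.20, adjusted p = 0.00246). Group by group it was 0.87 for the baselines, 0.95 for sham surgery and 1.16 for resection (SE 0.34 to 0.35), and none of these passed, with adjusted p of 0.178, 0.170 and 0.163. The value for sham surgery was 0.56 without replicate 1 of P10 sham +3 days, the library at 124 CPM.

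Cd248 encodes endosialin, a transmembrane lectin-like protein of stromal cells. It was at 235, 303 and 259 CPM at P2 baseline, 239, 340 and 300.4 CPM after P2 sham surgery, and 349, 299 and 283 CPM after P2 resection. Levels at P10 were 558, 913 and 1108 CPM at baseline, 743, 932 and 1047 CPM after sham surgery, and 728, 840.4 and 699 CPM after resection. The ages did not overlap, and within an age the groups did. The log2 fold change was 1.54 between the windows (SE 0.14, adjusted p = 1.2e-06), 1.69 between the baselines (SE 0.24, adjusted p = 0.000641), 1.63 between the sham groups (SE 0.24, adjusted p = 0.000891) and 1.28 between the resected groups (SE 0.24, adjusted p = 0.0131). The last was not called without replicate 2 or replicate 3 of P2 resected +3 days (adjusted p = 0.102 and 0.0936).

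Smoc2, a secreted calcium-binding matricellular protein of the SPARC family, had little spread within groups. Its levels were 702, 752 and 833 CPM at P2 baseline, 1010.5, 1235 and 1115 CPM after P2 sham surgery, and 1213, 1053 and 948 CPM after P2 resection. At P10 they were 2505, 2384 and 2439 CPM at baseline, 3605, 4006 and 3051 CPM after sham surgery, and 2606, 2988 and 2951 CPM after resection. The baseline group was the lowest of its age in both windows, with no overlap with either operated group. Smoc2 had a log2 fold change of 1.59 between the windows (SE 0.098, adjusted p = 2.19e-08), 1.68 between the baselines (SE 0.17, adjusted p = 3.12e-05), 1.67 between the sham groups (SE 0.17, adjusted p = 7.02e-05) and 1.41 between the resected groups (SE 0.17, adjusted p = 0.000354).

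Gsn encodes gelsolin, which severs and caps actin filaments and also has a secreted form. It was at 2796, 2769 and 1847 CPM at P2 baseline, 2989, 3961 and 2744 CPM after P2 sham surgery, and 3439, 3327 and 2678 CPM after P2 resection. Levels at P10 were 4769, 8398 and 8399 CPM at baseline, 16685, 13628 and 15255 CPM after sham surgery, and 12759, 11668 and 12317 CPM after resection. The 3 P10 groups did not overlap with one another or with the P2 groups, with baseline lowest and sham highest. Gsn had a log2 fold change of 1.91 between the windows (SE 0.14, adjusted p = 1.38e-07), 1.54 between the baselines (SE 0.23, adjusted p = 0.00106), 2.23 between the sham groups (SE 0.24, adjusted p = 9.56e-05) and 1.96 between the resected groups (SE 0.24, adjusted p = 0.000358).

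The remaining 3 genes did not pass in the window comparison. Dpt encodes dermatopontin, a small matrix protein that binds decorin and collagen. It was at 925, 916 and 1040.3 CPM at P2 baseline, 887, 1607 and 1339 CPM after P2 sham surgery, and 1162, 854 and 1074 CPM after P2 resection. In the P10 window it was at 1318, 1117 and 1086 CPM at baseline, 1647, 1477 and 1557 CPM after sham surgery, and 1274, 1260.3 and 1783 CPM after resection. The 2 windows overlapped widely, with a log2 fold change of 0.35 (SE 0.12, adjusted p = 0.0694).

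Pdgfra, which encodes a receptor tyrosine kinase for platelet-derived growth factors, was at 353, 581 and 304 CPM at P2 baseline, 559, 256 and 287 CPM after P2 sham surgery, and 352, 387 and 442 CPM after P2 resection. In the P10 window it was at 836, 415 and 336 CPM at baseline, 879, 333 and 381 CPM after sham surgery, and 484, 613 and 517 CPM after resection. In each of the 4 baseline and sham groups 1 library stood above the other 2, replicate 2 at P2 baseline and replicate 1 elsewhere, and the resected groups were tighter. Between the windows the log2 fold change was 0.45 (SE 0.23, adjusted p = 0.220), and 0.25 to 0.59 with 1 library left out.

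Thy1, a GPI-anchored protein of the immunoglobulin superfamily, was at 20.4, 15.9 and 42.5 CPM at P2 baseline, 17.6, 31.5 and 16.1 CPM after P2 sham surgery, and 24.6, 14.6 and 29.7 CPM after P2 resection. Levels at P10 were 36.9, 31.8 and 43.2 CPM at baseline, 22.97, 36.9 and 31.4 CPM after sham surgery, and 52.1, 40.3 and 26.0 CPM after resection. The windows overlapped, and the log2 fold change was 0.59 (SE 0.23, adjusted p = 0.100). For Dpt, Pdgfra and Thy1, the 3 comparisons group by group gave log2 fold changes between 0.29 and 0.78, with adjusted p of 0.515 or more.

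Counted group by group, 4 of the 10 genes rose with age at baseline (Pi16, Cd248, Smoc2 and Gsn), where 2.71% of all genes tested rose. After sham surgery 6 rose, these 4 with Ly6a and Ly6c1 (1.54% of all genes), and after resection the same 6 rose (0.625% of all genes). The libraries of the 2 ages did not overlap, with P10 higher, for 8 of the 10 genes between the baselines, 7 between the sham groups and 9 between the resected groups, against 10.3%, 9.07% and 10.6% of all genes. All log2 fold changes of the 10 genes were positive in these comparisons.

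**Figure D3:**
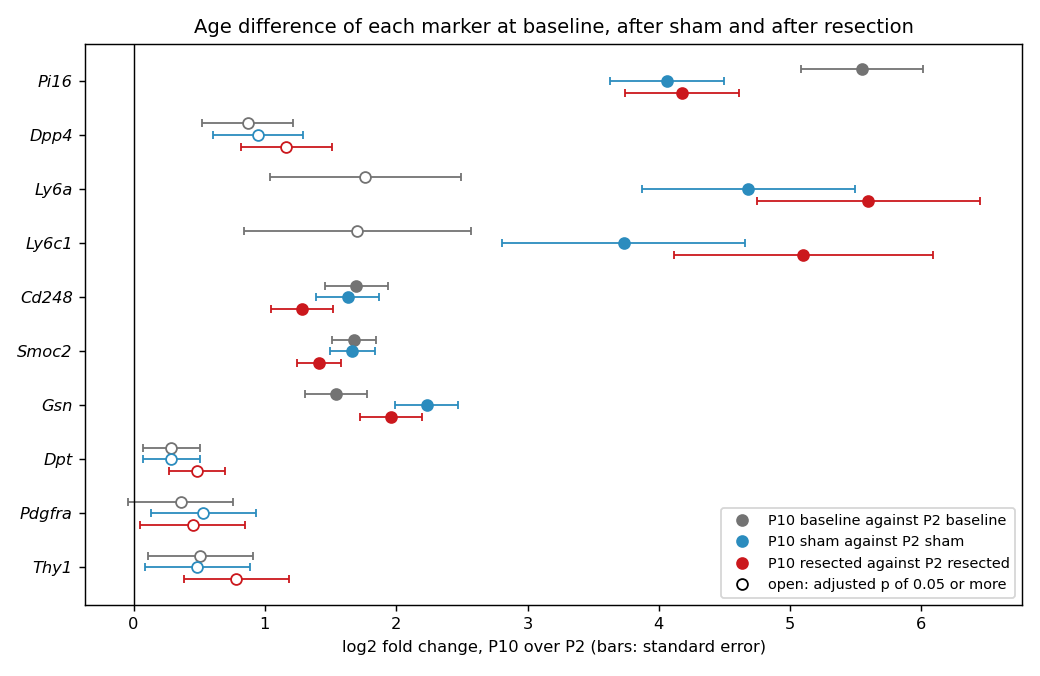
Log2 fold change of each marker gene, P10 over P2, in the baseline (grey), sham (blue) and resected (red) groups, with bars of 1 standard error and open symbols where the adjusted p was 0.05 or more. All 30 points lie above 0, from 0.29 to 5.59, and Ly6a and Ly6c1 have filled points in the operated groups and open ones at baseline.

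The second question was whether resection changed these markers beyond sham surgery. None of the 10 genes was called at P2 or at P10 by edgeR's quasi-likelihood test, with 0 of 10 at an unadjusted p under 0.05 at either age (4.51% of all genes at P2 and 4.09% at P10) and 0 by DESeq2 (0.2% and 0.206%). Among all 16170 genes edgeR called 0% in both comparisons. At P2 the log2 fold changes ran from -0.85 (Ly6c1, SE 0.85) to 0.10 (Pdgfra, SE 0.40), and the resected and sham libraries overlapped for each of the 10 genes, where 8.47% of all genes had groups that did not. At P10 they ran from -0.32 (Smoc2, SE 0.17) to 0.72 (Ly6a, SE 0.70). The P10 resected libraries lay below all P10 sham libraries for Smoc2 and Gsn, 2 of the 10 genes, where 8.68% of all genes had groups that did not overlap in either direction, and the unadjusted p was 0.0702 and 0.192. The Ly6a value rests on replicate 3 of P10 resected +3 days and was -0.83 without it. Whether resection acted unlike at P10 and at P2 was tested as an interaction, in which edgeR called 0 of the 10 genes (0% of all genes), 0 of 10 had an unadjusted p under 0.05 (2.88% of all genes) and DESeq2 called 0 (0.115%). It ranged from -0.35 (Cd248, SE 0.33) to 1.37 (Ly6c1, SE 1.19). Leaving out 1 library at a time moved the Ly6c1 value from 0.27 to 2.44 in the interaction and from -1.92 to -0.42 at P2.

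The third set of values compared the sham groups with the baseline of the same age, a difference that also holds 3 days of growth, since the operated pups were collected 3 days later. At P2, edgeR called 0 of the 10 genes (0% of all genes) and 2 passed at an unadjusted p under 0.05 (7.6% of all genes), Pi16 with a log2 fold change of 2.28 (SE 0.40, adjusted p = 0.142) and Smoc2 with 0.56 (SE 0.17, adjusted p = 0.494). For both, the 3 sham libraries were above the 3 baseline libraries, where 4.48% of all genes had this order. DESeq2 called 2 of the 10 genes, the same Pi16 and Smoc2, against 1.09% of the genes it tested.

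At P10, edgeR again called 0 of the 10 genes in sham against baseline (0.00618% of all genes) and 4 passed at an unadjusted p under 0.05 (7.4% of all genes). These were Ly6a with a log2 fold change of 3.97 (SE 0.79, adjusted p = 0.207), Ly6c1 with 3.32 (SE 0.91, adjusted p = 0.401), Gsn with 1.08 (SE 0.23, adjusted p = 0.270) and Smoc2 with 0.54 (SE 0.17, adjusted p = 0.472). The sham libraries were all above the baseline libraries for 6 of the 10 genes, these 4 with Pi16 and Dpt, where 5.34% of all genes had this order. DESeq2 called 4 of the 10 genes, Ly6a, Ly6c1, Gsn and Smoc2, against 1.01% of the genes it tested.

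A comparison chosen after these values had been seen put the sham and resected libraries of an age together against its baseline. At P2, Pi16 was called with a log2 fold change of 2.26 (SE 0.37, adjusted p = 0.0351), 1 of the 10 genes where 0.0371% of all genes rose, and the call was lost when any of 7 of the 9 libraries was left out: each P2 baseline library, replicates 2 and 3 of P2 sham +3 days, and replicates 1 and 3 of P2 resected +3 days (adjusted p up to 0.295 over the alternatives). DESeq2 called 2 of the 10 genes there (1.02% of the genes it tested). At P10, edgeR called 0 of the 10 genes (0.0124% of all genes), 5 passed at an unadjusted p under 0.05 (8.29% of all genes), and DESeq2 called 3, Ly6a, Ly6c1 and Gsn (1.78% of the genes it tested). Ly6a had the largest log2 fold change there, 4.33 (SE 0.77, adjusted p = 0.0654), and it passed when any 1 of the 3 P10 resected libraries was left out, with 4.51 without replicate 1 (adjusted p = 0.0443), 4.57 without replicate 2 (adjusted p = 0.0130) and 3.56 without replicate 3 (adjusted p = 0.0346). It did not pass without any 1 of the P10 baseline libraries (adjusted p = 0.147, 0.207 and 0.402) or of the P10 sham libraries (adjusted p = 0.0759, 0.0545 and 0.0839). For Ly6a, operated against baseline differed between P10 and P2 by 3.38 on the log2 scale (SE 0.89, adjusted p = 0.257), and for Pi16 by -1.42 (SE 0.47, adjusted p = 0.427). In that difference edgeR called 0 of the 10 genes (0.0557% of all genes), 3 passed at an unadjusted p under 0.05 (7.12% of all genes), and DESeq2 called 1, Ly6a (1.28% of the genes it tested).

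Other genes of the same fibroblast states were read from lists, whose counts stand beside the 7.11% of all genes tested that rose between the windows, the 13.5% that changed in either direction and the median log2 fold change of -0.06. The lists were chosen with earlier results of these data known, so their counts are descriptive and not independent evidence. Of 16 companions of Pi16 in the adventitial state, 11 rose from the P2 to the P10 window and 0 fell, with a median log2 fold change of 1.34. Group by group, 10 rose between the baselines, 8 between the sham groups and 5 between the resected groups, against 2.71%, 1.54% and 0.625% of all genes, with medians of 1.45, 1.34 and 1.21. The largest were Ackr3, a scavenging receptor for CXCL12, at 73.1 ± 47.5 CPM in the P2 window and 557 ± 148 CPM in the P10 window (SD, n = 9, log2 fold change 3.08, SE 0.28, adjusted p = 1.32e-06), and Efhd1, a mitochondrial calcium-binding protein, at 14.2 ± 12.2 and 96.8 ± 35.6 CPM (log2 fold change 2.97, SE 0.50, adjusted p = 0.000608). Dact2, a Wnt pathway modulator, had a log2 fold change of 2.71 (SE 0.38, adjusted p = 0.00012). The most abundant was Mfap5, a microfibril protein, at 1421 ± 583 and 3513 ± 644 CPM (log2 fold change 1.33, SE 0.20, adjusted p = 0.000212). As with Pi16, the 9 P10 libraries lay above the 9 P2 libraries for Ackr3, Efhd1, Pcsk6, Igfbp6, Emilin2 and Cd34. Of all genes tested, 1.15% had this order. For the rest of the 16 companions the windows overlapped.

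Of 8 companions of Col15a1, 2 rose and 0 fell, with a median of 0.45. Between the baseline, sham and resected groups 1 rose each time, against 2.71%, 1.54% and 0.625% of all genes. Cxcl12, a chemokine, went from 53.7 ± 27.8 to 246 ± 132 CPM (SD, n = 9, log2 fold change 2.29, SE 0.20, adjusted p = 1.13e-06), and Col15a1 itself from 279 ± 76.9 to 544 ± 129 CPM (log2 fold change 0.97, SE 0.18, adjusted p = 0.00159). Col4a1, a basement membrane collagen and the most abundant of them, had a log2 fold change of 0.00 (SE 0.22, adjusted p = 1.00). Cxcl12 was at 314, 184 and 577 CPM in P10 resected +3 days, so that replicate 3 was the highest here too.

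Of 12 further identity and matrix genes, 4 rose and 1 fell, with a median of 0.46. Between the baselines 4 rose, between the sham groups 1 and between the resected groups 0, against 2.71%, 1.54% and 0.625% of all genes. Those that rose were Dcn (decorin, log2 fold change 0.95, SE 0.15, adjusted p = 0.000262), Mmp2 (a matrix metalloproteinase, 0.87, SE 0.10, adjusted p = 1.81e-05), Lum (lumican, 0.72, SE 0.16, adjusted p = 0.00462) and Col3a1 (0.65, SE 0.13, adjusted p = 0.00269), the last being the most abundant of the list. Vim, which encodes the intermediate filament vimentin, fell by 0.48 on the log2 scale (SE 0.10, adjusted p = 0.00448). Tcf21, the gene whose promoter drives the Cre, had a log2 fold change of -0.01 (SE 0.15, adjusted p = 0.993).

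**Figure D4:**
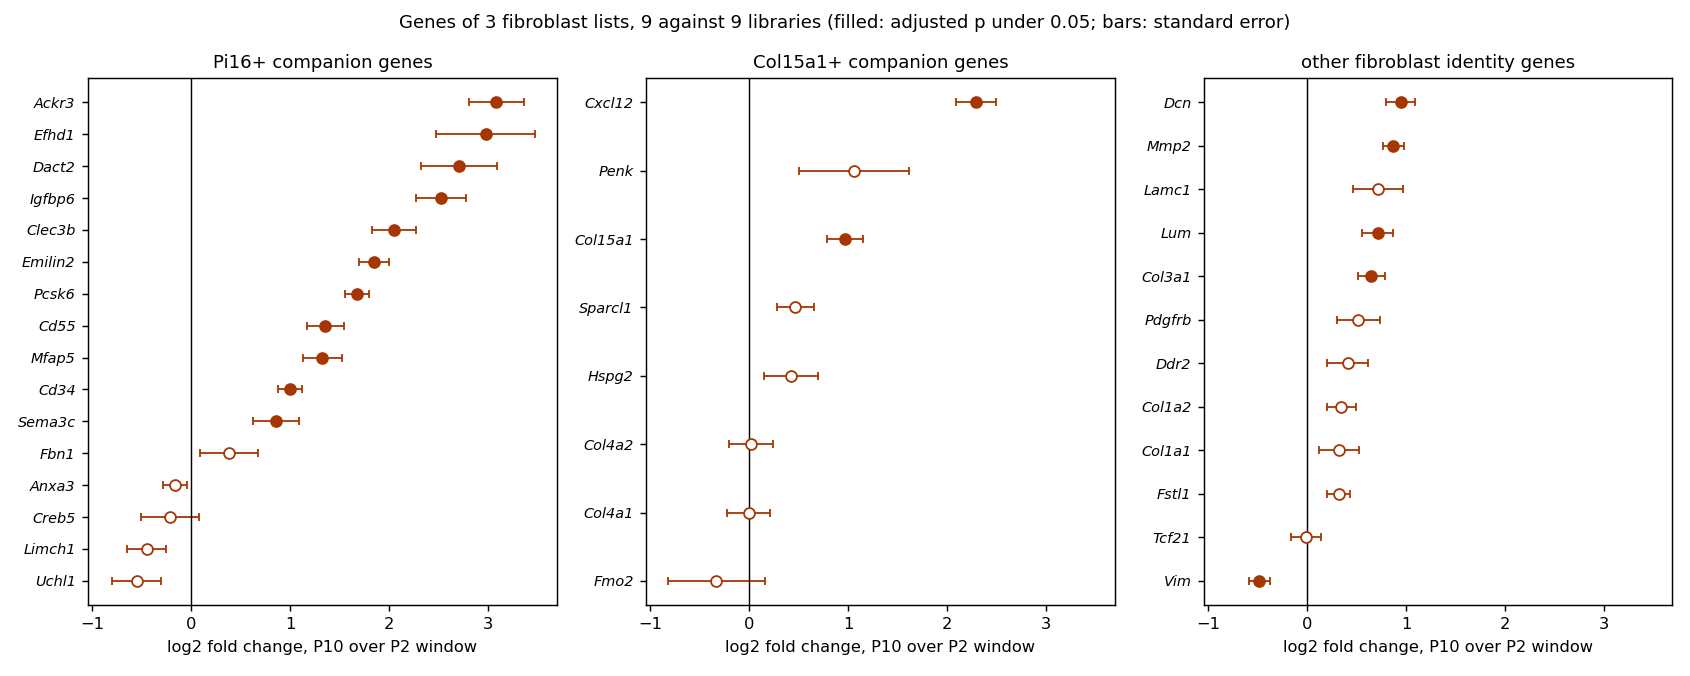
Log2 fold change, P10 over P2 window (9 against 9 libraries), of the genes of 3 lists, with bars of 1 standard error and filled symbols where the adjusted p was under 0.05. Of the 16 companions of Pi16, 11 are filled and lie right of 0, against 2 of 8 companions of Col15a1 and 4 of 12 other identity genes, where Vim is filled left of 0.

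Relatives of the 10 genes by family were the last fibroblast-centred list. Of 22 such genes 17 were tested, and 4 rose and 0 fell, with a median of 0.49. Between the baseline, sham and resected groups 3, 2 and 2 rose, against 2.71%, 1.54% and 0.625% of all genes. Thbd, which encodes thrombomodulin of the same lectin-like family as Cd248, had the largest log2 fold change, 2.55 (SE 0.16, adjusted p = 2.42e-08), from 36.2 ± 15.8 to 196 ± 44.2 CPM (SD, n = 9). Capg, an actin-capping relative of Gsn, followed at 1.25 (SE 0.17, adjusted p = 6.5e-05), and Ly6e is given above. Fap, the closest relative of Dpp4 and a marker of activated fibroblasts, was the fourth and was named after its values were seen (0.80, SE 0.18, adjusted p = 0.00552). Pdgfrb, the receptor related to Pdgfra and a marker of mural cells as well, did not pass (0.52, SE 0.21, adjusted p = 0.117). Ly6f had no count in any library.

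Several of the 10 genes are also expressed by other cells, Ly6a and Ly6c1 by endothelial cells and T cells and Dpp4 and Thy1 by T cells among them, so markers of other cell types were read in the same libraries. The summed level of 8 endothelial markers ran from 240 to 473 CPM at P2 baseline, 258 to 576 after P2 sham surgery, 260.0 to 522 after P2 resection, 399 to 451 at P10 baseline, 337 to 576 after P10 sham surgery and 384 to 852 after P10 resection. In this sum the P10 baseline and P10 sham libraries overlapped. Tek weighed most in it, with a mean of 246.5 CPM over all libraries, against 3.87 to 99.5 CPM for each of the other markers. The part of endothelial cells in the values of Ly6a and Ly6c1 was not tested. Replicate 3 of P10 resected +3 days, the highest for Ly6a, was at 580 CPM, below replicate 1 at 852. In the window comparison, where 7.11% of all genes rose, 1 of the 8 genes did so, Esam, an endothelial adhesion molecule (log2 fold change 0.90, SE 0.25, adjusted p = 0.0223), and 0 fell, with a median of 0.14. Esam was not called in every fit with 1 library left out. The median of the 8 genes was -0.50 between the baselines, -0.28 between the sham groups and 0.63 between the resected groups. It was -0.06 for P10 sham against P10 baseline and 1.27 for P10 resected against P10 sham. In both of these 0 were called (0.00618% and 0% of all genes). Tek, an angiopoietin receptor and the most abundant of them, had a log2 fold change of 0.45 (SE 0.15, adjusted p = 0.0582).

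The 10 macrophage markers summed to 12.9 to 54.5 CPM at P2 baseline, 7.76 to 158 after P2 sham surgery, 67.7 to 395 after P2 resection, 18.3 to 215 at P10 baseline, 94.3 to 320 after P10 sham surgery and 67.6 to 1010.0 after P10 resection. Replicate 3 of P10 resected +3 days held the lowest sum of its group. Cd14, a lipopolysaccharide co-receptor, was the 1 gene of the 10 that rose, against 7.11% of all genes (log2 fold change 2.11, SE 0.62, adjusted p = 0.0304), and the list's median was 1.13. Cd14 was not called in every fit with 1 library left out. The median was 0.97, 1.40 and 1.18 between the baseline, sham and resected groups, where 0 rose (2.71%, 1.54% and 0.625% of all genes). For P10 operated against P10 baseline it was 1.415, with 3 at an unadjusted p under 0.05 (8.29% of all genes). The part of macrophages in the values of the 10 markers was not tested. Lyz2, a lysozyme and the most abundant of them, did not pass (1.66, SE 0.57, adjusted p = 0.0644). The 7 T cell markers summed to 6.12 CPM or less in every library, with Cd3d and Cd3g at 0 in all 18. Of the 3 that were tested 1 rose, Cd4, a co-receptor of T cells, at 0 to 5.23 CPM over the libraries (adjusted p = 0.0481). This call was not made in every fit with 1 library left out.

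Of 8 mural cell markers 4 rose and 1 fell between the windows, where 7.11% of all genes rose and 6.39% fell, with a median of 0.49. Between the baselines 4 rose (2.71% of all genes, median 1.202), whereas 0 were called between the sham groups (median 0.23, 2 at an unadjusted p under 0.05) and 0 between the resected groups (median -0.04, 2 at an unadjusted p under 0.05). Those that changed between the windows were Myh11, the smooth muscle myosin (log2 fold change 2.42, SE 0.46, adjusted p = 0.00154), Kcnj8, a potassium channel of pericytes (1.10, SE 0.18, adjusted p = 0.000499), Higd1b (1.02, SE 0.20, adjusted p = 0.00211) and Rgs5, the most abundant (0.74, SE 0.23, adjusted p = 0.0407), while Mcam, an adhesion molecule, fell by 0.86 on the log2 scale (SE 0.23, adjusted p = 0.019). Their sum ran from 388 to 980 CPM in the P2 window and from 557 to 1482 CPM in the P10 window. Of 10 cardiomyocyte markers 5 fell, against 6.39% of all genes, and 0 rose, with a median of -1.04. Among them were Myl2 (-1.22, SE 0.29, adjusted p = 0.00898), Tnnt2 (-1.07, SE 0.27, adjusted p = 0.0134), Actc1, the most abundant (-0.98, SE 0.31, adjusted p = 0.041), and Myh7, whose counts were at 0 in 8 libraries (adjusted p = 0.0103). Their sum ran from 290 to 1392 CPM in the P2 window and from 146 to 705 CPM in the P10 window, and the part of this shift in the values of the 10 genes was not tested. Of 7 epicardial markers tested edgeR called 0, 1 passed at an unadjusted p under 0.05 (28.3% of all genes) and DESeq2 called 1 (19.4% of the genes it tested). Their sums ran from 1.57 to 24.0 CPM in the P2 window and from 0 to 57.4 CPM in the P10 window, and no median is given since the fold of Krt8 and Lrrn4 could not be estimated. Msln, mesothelin and the most abundant of them, averaged 2.79 ± 2.86 CPM in the P2 window and 2.88 ± 4.66 CPM in the P10 window (SD, n = 9).

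**Figure D5:**
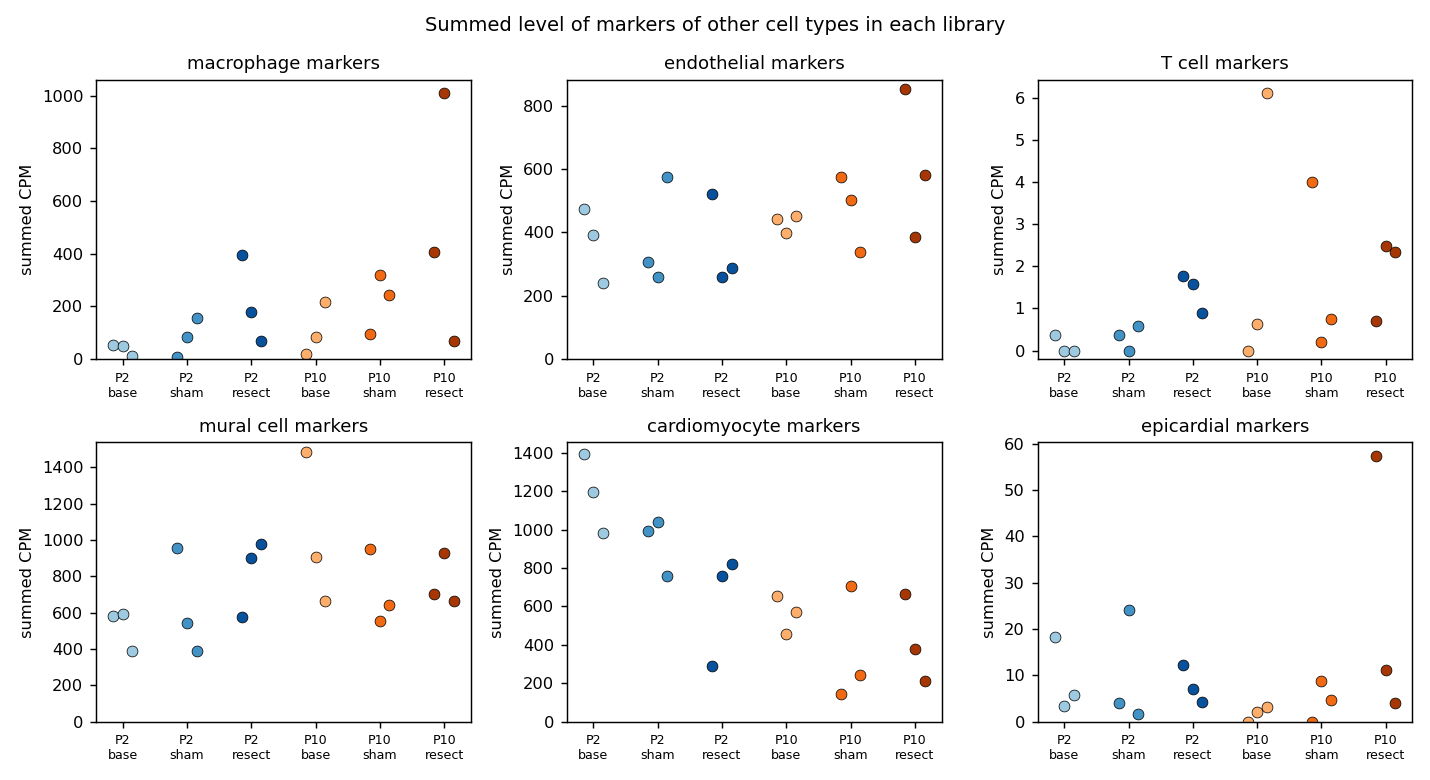
Summed CPM of the marker lists of 6 other cell types in each library, 3 points per group (blue, P2 groups; orange, P10 groups), each panel on its own linear axis. T cell markers stay at 6.12 CPM or less, endothelial sums overlap between all groups, macrophage sums reach 1010.0 CPM in 1 P10 resected library, and cardiomyocyte sums reach 1392 CPM at P2 baseline.

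The likeness of patterns was measured as Pearson's r of log2 CPM over the 18 libraries, over which the difference between the ages is shared by many genes, so r within each window (9 libraries) is given for the pairs of members and, for their neighbours, as a range or where it was lowest. Pi16 and Smoc2 were the most alike of the 45 pairs of members (r = 0.977 over all libraries, 0.962 in the P2 window, 0.538 in the P10 window). Ly6a and Ly6c1 came next (0.948, with 0.788 in the P2 window and 0.996 in the P10 window). Gsn and Smoc2 followed (0.947, with 0.615 in the P2 window and 0.694 in the P10 window). Pi16 and Gsn were at 0.943, with 0.632 in the P2 window and 0.926 in the P10 window. Below these, Pi16 and Cd248 had r = 0.939 over all libraries, 0.718 in the P2 window and 0.293 in the P10 window.

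Over all genes tested, those most like Pi16 were Crispld2, another gene of the CAP family (r = 0.985), Entpd2 (0.984) and Ackr3 (0.983). In the P2 window these were at 0.914 to 0.931, and in the P10 window at 0.750 (Crispld2), 0.776 (Entpd2) and 0.899 (Ackr3). Smoc2 was most like Crispld2 (0.983), C1qtnf1 (0.980) and Pi16, with the first and second at 0.785 to 0.894 within the windows. Gsn was most like Htra3 (0.976), Pcolce2 (0.965) and Serping1 (0.955), the last at 0.597 in the P2 window. Cd248 was most like Axl (0.965), Gm7117 (0.964) and Fcgrt (0.958), of which Gm7117 was at 0.541 in the P10 window. For Ly6a the nearest were Tapbp, which encodes a chaperone of antigen loading (0.952, 0.588 in the P2 window and 0.927 in the P10 window), Ly6c1, and Ifngr1, an interferon-gamma receptor chain (0.941, 0.655 in the P2 window). Ly6c1 was most like Bmper (0.956), Ly6a and Htra4 (0.931), with Bmper and Htra4 at 0.855 to 0.934 within the windows. Dpp4 was most like Cd55 (0.902), Col4a4 (0.863) and Rnf13 (0.861), and within a window these fell to 0.626 (Cd55, P10), 0.431 (Col4a4, P2) and 0.651 (Rnf13, P10).

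The genes that did not pass had other neighbours. Pdgfra was most like Lamc1 (0.942), Lama2 (0.938) and Il6st (0.906), of which Lamc1 and Lama2 encode laminin chains, and these held within the windows at 0.876 to 0.980. Dpt was most like Selenop (0.960), Serpinb6a (0.924) and Ctsl (0.919), at 0.774 to 0.964 within the windows. Thy1 was most like 0610009L18Rik (0.854), Higd2a (0.815) and Serpinb9b (0.807), which were at 0.567, 0.648 and 0.559 in the P10 window.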

How the data were processed

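GFP+ Tcf21-lineage cells were profiled by low-input bulk RNA sequencing (SMARTer v4 and Nextera XT, single-end reads of 75 bases). The authors trimmed reads with fastp 0.20.0, mapped them with STAR 2.7.0f to GRCm38.p6 with GENCODE M22 and counted reads on exons per gene symbol, without regard to strand, with featureCounts (Subread 1.6.4). The deposited values are raw counts, one column for each of the 18 libraries, and since the libraries were amplified without molecular identifiers, several reads can come from 1 molecule.

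Tests used edgeR 4.0.16 (R 4.3.3) with TMM scaling, filterByExpr at its defaults (minimum count 10, minimum total 15), 1 mean per group over all 18 libraries, quasi-likelihood tests and Benjamini-Hochberg adjustment over 16170 genes. CPM were computed from library totals over the tested genes multiplied by the TMM factors, and so are not plain shares of the deposited totals. Alternatives were DESeq2 1.42.0, RLE scaling, no filter, limma 3.58.1 voom with quality weights, the compared groups alone, a replicate block and each library left out. Positions and shared 75-base words came from GENCODE M21 (GRCm38), a release before the authors' own. Likeness used log2 CPM with a prior count of 2. Scripts were tested on simulated data.

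The named genes are the 10 markers, up to 3 genes per list and direction with the largest window change among those called, the most abundant gene of each list, the 3 genes most like each marker, and Ly6c2 and Ly6e. Companions of Pi16 whose windows did not overlap were named as well, after their values were seen. The 10 markers and the lists were chosen with earlier results of these data known. Replicates differed by more than sampling noise, with chi-square per gene of 34.2 to 295 over 18 pairs.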

Additional observations from a re-analysis of the deposited data

How the results depend on the processing

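In the 4 age comparisons and the 3 comparisons of resection, every alternative gave counts of called markers within 1.5 times the main count. Sham against baseline depended on the test. At P2, where edgeR called 0 of the 10 genes, DESeq2 called 2 (1.09% of all genes) and edgeR without the filter 1 (0.381%). At P10, where edgeR called 0, DESeq2 called 4 (1.01%), edgeR without the filter 3 (0.522%) and the fit of the compared groups alone 1 (0.00744%). In the comparisons added after seeing the data, P2 operated against baseline gave 2 with DESeq2 (1.02%), 2 with voom (0.711%) and 0 with the compared groups alone (0.0133%), P10 operated against baseline gave 3 with DESeq2 (1.78%), with voom (0.278%) and without the filter (0.955%), and the difference between them gave 1 with DESeq2 (1.28%) and 3 without the filter (0.813%). Fits with the replicate block gave 7 called markers between the windows (17% of all genes), 4 between the baselines (6.23%), 6 between the sham groups (3.93%) and 7 between the resected groups (1.15%), where Dpp4 was added. The numbers were not taken as pairs, since the sources used here tie them to no litter or day and only 15 of 45 same-numbered pairs of libraries correlated above 0.1 (median 0.0466, -0.135 to 0.378, against a median of -0.0248 for other numbers). As a hint from the data, 10 of 18 libraries correlated best with their own number, so pairing is not shown to be absent.

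With each library left out in turn, called markers ranged from 7 to 9 between the windows, 4 to 4 between the baselines, 5 to 5 between the sham groups, 4 to 6 between the resected groups, 0 to 1 for P2 sham against baseline (1 without P2 sham replicate 1), 0 to 0 for P10 sham against baseline and both comparisons of resection, 0 to 1 for P2 operated against baseline, 0 to 1 for P10 operated against baseline and 0 to 0 for both differences of differences. Called genes of the lists, in either direction between the windows, also ranged. They were 11 to 11 for the Pi16 companions, 2 to 4 for the Col15a1 companions and 5 to 9 for the other identity genes. Relatives ranged from 4 to 6, macrophage and endothelial markers each from 0 to 2, and T cell markers from 0 to 1. Mural cell markers ranged from 4 to 5, cardiomyocyte markers from 3 to 7 and epicardial markers from 0 to 0. Signs turned in marker genes that were not called. Pdgfra ranged from -0.14 to 0.69 on the log2 scale between the baselines, -0.0409 to 0.97 between the sham groups and -0.11 to 0.54 for P2 resected against sham. Ly6a ranged from -0.83 to 1.19 for P10 resected against sham, and voom gave -0.0375. Thy1 ranged from -0.62 to 0.26 for P2 sham against baseline, -0.49 to 0.30 for P2 operated against baseline and -0.23 to 0.0139 for P10 operated against baseline, where voom gave 0.0793. Of 386 single-gene values under other settings, 345 kept direction and side of the threshold, 38 passed it newly, 1 lost it and 2 turned. Of 591 with a library left out, these numbers were 557, 7, 18 and 9. The causes were not tested.

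With 3 libraries per group, a change of the size seen for Dpp4 passed between the windows and not in the reported tests group by group (between the resected groups it passed with DESeq2, with voom, without the filter and with the block, and between the baselines with voom), and the Ly6c1 level at P2 rests on as few as 5 counts in a library.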
